A study of Mus musculus with 8 samples.

Results

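The miR-15/16 family is a group of microRNAs (miRNAs) that share the same seed, the bases at positions 2 to 8 through which a miRNA pairs with its target messages. Its members on the panel were taken by name and were mmu-miR-15a, mmu-miR-15b, mmu-miR-16, mmu-miR-195, mmu-miR-322 and mmu-miR-497 (the prefix for mouse is left out below), which make up 6 of the 566 mouse miRNA rows and of 626 rows in all. All 6 were present. The samples were 4 of liver macrophages (Kupffer cells, KC) and 4 of monocytes from blood (MNC), all from Balb/C mice, with no treatment named in the labels. KC came from perfused, enzymatically digested liver and MNC from the mononuclear fraction of blood. Both were enriched with magnetic beads against F4/80, a surface marker of macrophages and monocytes, and each sample was a pool, of 5 mice per the labels, where the methods for the assay allow 4 as well. The labels do not say that the pools were independent, so the errors given here measure the spread between these samples.

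A miRNA is loaded into an Argonaute protein and lowers the stability and translation of messages that carry a match to its seed. The miR-15/16 family is known for restraining the cell cycle through cyclins and cyclin-dependent kinases, and for targeting the survival gene Bcl2. The pair encoded by Mir15a and Mir16-1 lies in a region that is often lost in chronic lymphocytic leukaemia. miR-16 is among the abundant miRNAs of blood cells, red cells included.

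The mature sequences are printed because the seed defines the family, while the remaining bases decide how far an assay can tell the members apart. They are RefSeq sequences on the mouse assembly GRCm38.p6, written 5′ to 3′ with the seed in capitals. The panel names miR-15a, miR-15b, miR-16 and miR-322 matched a mature entry. miR-195 and miR-497 had no such match by name and were taken as miR-195a-5p and miR-497a-5p.

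miR-15a: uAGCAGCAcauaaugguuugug
miR-15b: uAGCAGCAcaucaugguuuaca
miR-16: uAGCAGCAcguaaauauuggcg
miR-195: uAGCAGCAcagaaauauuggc
miR-322: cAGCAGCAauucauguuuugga
miR-497: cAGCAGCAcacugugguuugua

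All 6 hold AGCAGCA at positions 2 to 8, a seed found in 11 of the 1738 mature mouse entries (0.633%). miR-16 and miR-195 were the closest pair, with 19 of 21 compared bases identical. Counted from the 5′ end, with the miR-16 base first, they differ by G10A and U11G, and miR-16 is 1 base longer. miR-15a and miR-15b share 18 of 22 bases. The most distant pair, miR-16 and miR-497, shares 11 of 22. Whether the probes of the panel separate miR-16 from miR-195 was not tested.

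The members come from 4 places in the genome. miR-15a lies at chr14:61632075-61632096 on the minus strand, inside the long non-coding RNA gene Dleu2, and 1 copy of miR-16 (Mir16-1) lies 139 bases from it at chr14:61631936-61631957. miR-15b lies at chr3:69009775-69009796 on the plus strand within the span of Smc4, a subunit of condensin, and the second copy of miR-16 (Mir16-2) starts 143 bases further on, at chr3:69009918-69009939. The mature miR-16 of both genes is the same, so a miR-16 count does not say which gene it came from. miR-497 and miR-195 start 332 bases apart, at chr11:70234730-70234751 and chr11:70235062-70235082. miR-322 lies at chrX:53054306-53054327 on the minus strand, in a non-coding transcript and 279 bases from miR-503. The annotation used here gives gene spans and not exons.

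In the nCounter assay single fluorescent barcodes are counted, and the deposited value, the signal, is the barcode count times a factor of the sample. The factor was 1.52 to 1.76 in KC and 0.589 to 1.06 in MNC, and it set the geometric mean of 4 messenger RNAs to the same value in every sample. As a result the median mouse miRNA was 0.94 higher in KC on the log2(signal + 1) scale and level on the barcode counts. The limit for background was the count of the top negative control in the same sample, which ran from 17 to 35, and a row with more counts than that is described as above background. Total mouse counts ran from 5374 to 10568, with MNC 1 the lowest. In bulk samples, fewer cells that hold a miRNA and less of it in each cell cannot be told apart.

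miR-16 had the highest count of the family in every sample but MNC 4. In KC 1 to KC 4, mmu-miR-16 gave barcode counts of 61, 61, 61 and 66, and in MNC 1 to MNC 4 it gave 22, 76, 41 and 47. KC samples lay close together, whereas MNC spread widely, with MNC 2 above every KC sample and MNC 1 far below. The mean count was 62.3 ± 2.5 (SD, n = 4) in KC and 46.5 ± 22.4 (SD, n = 4) in MNC. miR-16 was above background in all 8 samples, and it was the only member for which this held. Among all mouse rows, 1.41% were above background in every sample. The exact Poisson 95% interval of the count, which covers counting error only, lay wholly above the highest negative control in 4 of 4 KC samples and in 2 of 4 MNC samples. In MNC 1 the count of 22 had an interval of 13.8 to 33.3, with the highest negative control at 17. miR-16 ranked 9 to 12 of the 566 mouse rows in KC and 6 to 20 in MNC.

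**Figure D1:**
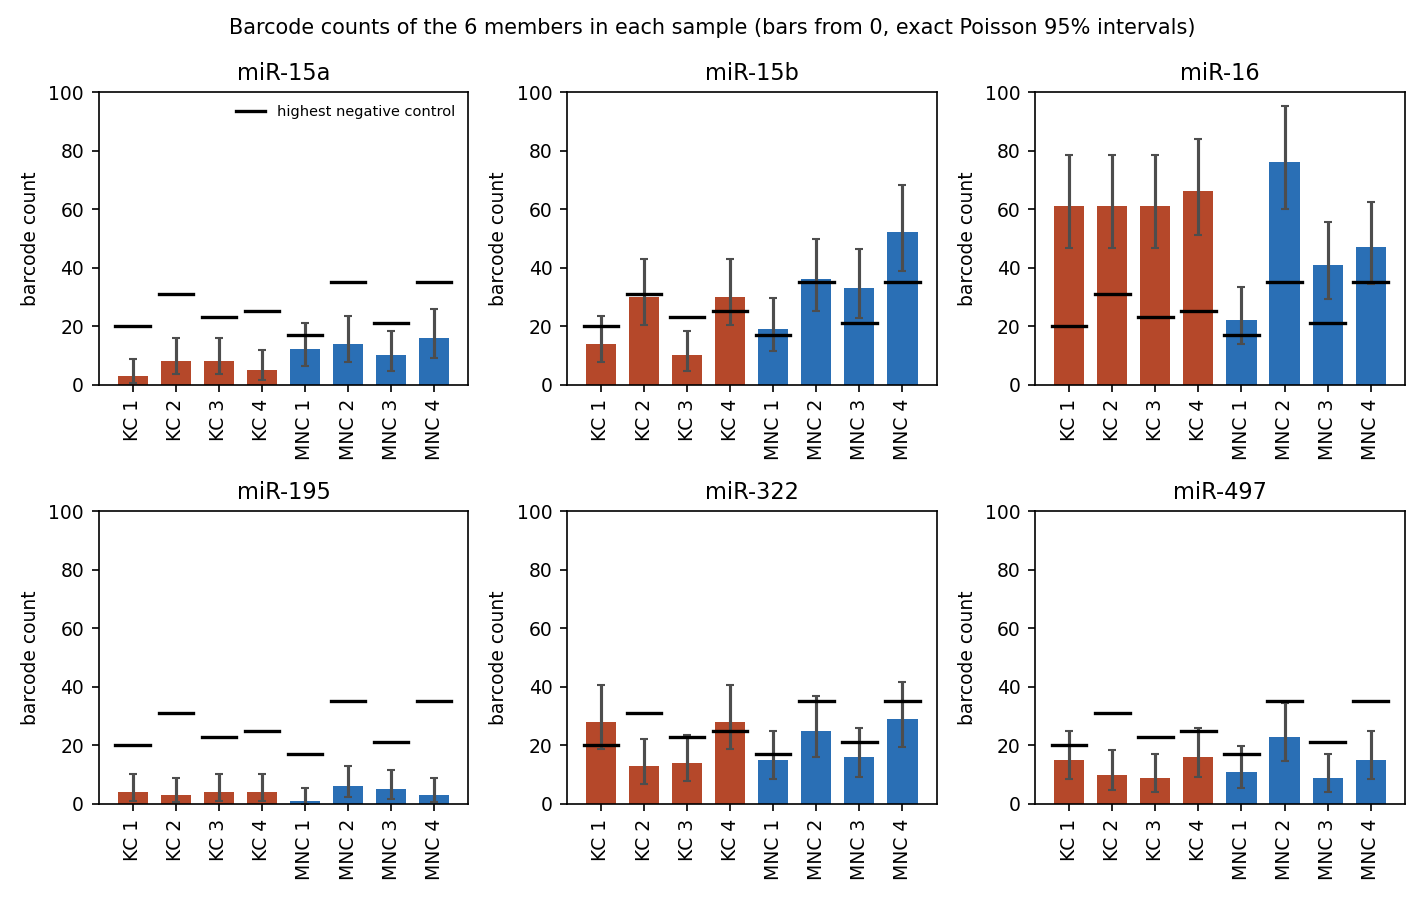
Barcode count of each of the 6 members in the 4 KC and 4 MNC samples, with KC in red, MNC in blue, exact Poisson 95% intervals as error bars and black lines for the highest negative control of each sample. miR-16 lay above the limit in all 8 samples and miR-15b in all 4 MNC samples, while miR-15a, miR-195 and miR-497 stayed under it throughout.

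miR-15b, whose gene neighbours Mir16-2, was the second member to clear background. The 4 KC samples held 14, 30, 10 and 30 counts of mmu-miR-15b, and the 4 MNC samples 19, 36, 33 and 52. MNC 4 was the highest of the 8 and KC 3 the lowest, and the groups overlapped. miR-15b was above background in 4 of 4 MNC samples but in 1 of 4 KC samples, KC 4. The margin in MNC 2 was 36 counts against 35. Only 2 of the 4 MNC intervals lay wholly above the limit. Over the mean negative control of the same sample, miR-15b stood at 0.84 to 2.42 in KC and 2.05 to 3.44 in MNC, and miR-16 at 4.14 to 5.33 and 2.38 to 4.61. Every KC sample was above background for 1 of 6 members, beside 4.42% of mouse rows. Every MNC sample was so for 2 of 6, beside 2.3%.

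miR-15a, which shares its seed and 18 bases with miR-15b, stayed under background in every sample. mmu-miR-15a had 3, 8, 8 and 5 counts in KC and 12, 14, 10 and 16 in MNC. The groups did not overlap on the counts, all MNC samples being higher, which held for 1.06% of mouse rows in that direction. On the signal they did overlap, with 4.57 to 14.1 in KC and 7.07 to 12.8 in MNC. Because every count lay under the highest negative control, these are values of the background range and no level of miR-15a can be read from them.

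miR-322 and its neighbours on the X chromosome belong to a cluster known from muscle and other differentiating cells. mmu-miR-322 had 28, 13, 14 and 28 counts in KC and 15, 25, 16 and 29 in MNC. It was above background in KC 1 and KC 4 and in no MNC sample. The groups overlapped on the counts. The miR-322 count was 20.8 ± 8.38 (SD, n = 4) in KC and 21.3 ± 6.85 (SD, n = 4) in MNC, which differ by less than the spread. Other miRNAs of the miR-322 cluster had 8 of the 10 listed rows on the panel. None was above background in any sample, with counts of 1 to 31. By limma, 1 of the 8, miR-450a-5p, was called higher in KC and 0 lower, where 24.7% of all mouse rows were called higher.

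**Figure D2:**
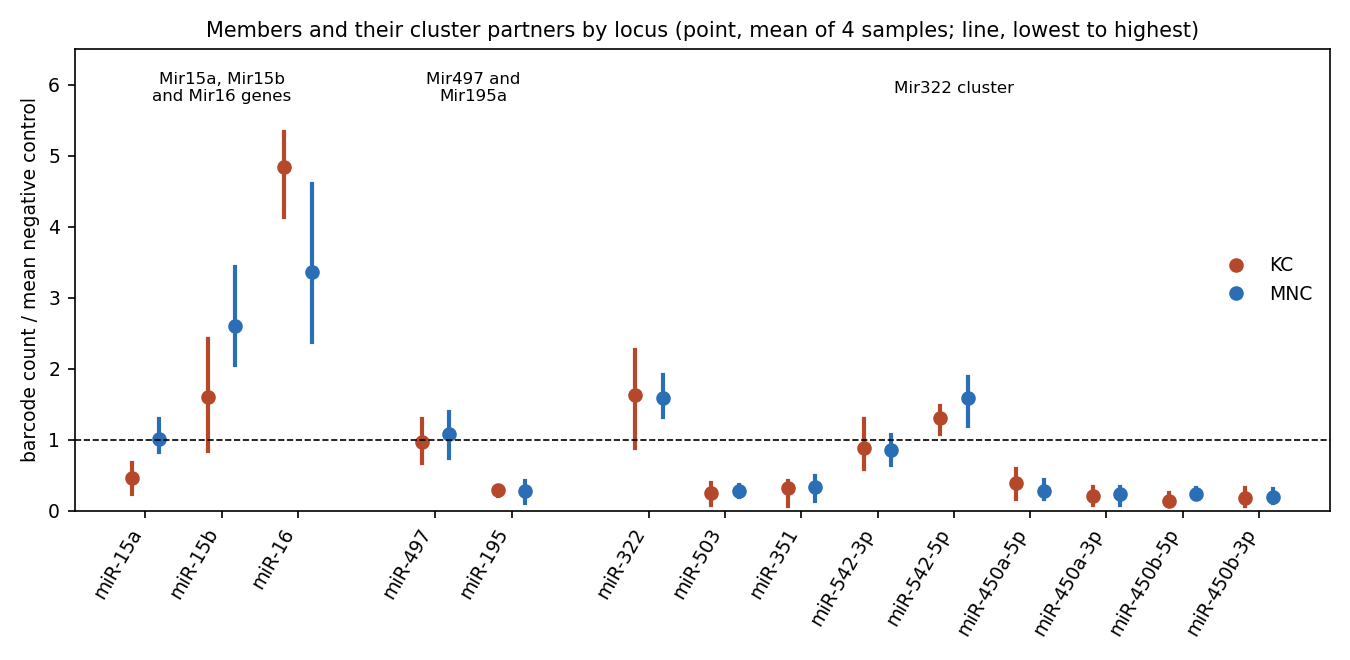
Barcode count over the mean negative control of the same sample for the members and the miR-322 cluster partners, grouped by locus. Points are means of 4 samples, lines run from the lowest to the highest sample, red is KC, blue is MNC and the dashed line marks the mean negative control. miR-16 stood above the others in KC, whereas of the miR-322 cluster partners only miR-542-5p lay over the dashed line in all 8 samples, about as high as miR-322 in MNC.

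miR-497 and miR-195 come from 1 short stretch of chromosome 11 and have been described in muscle and vessel walls. mmu-miR-497 had 15, 10, 9 and 16 counts in KC and 11, 23, 9 and 15 in MNC. mmu-miR-195 had 4, 3, 4 and 4 counts in KC and at most 1, then 6, 5 and 3 in MNC, since the signal of MNC 1 was listed at the floor of 1. Both were under background in all 8 samples, and the groups overlapped. miR-195, the closest in sequence to miR-16, had 4.9 to 6.6% of the miR-16 count in KC and up to 12.2% in MNC, where the lowest share, in MNC 1, was at most 4.5%.

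By mean count the order in KC was miR-16, miR-15b, miR-322, miR-497, miR-15a and miR-195. There miR-16 lay above miR-15b in every sample, with at least 61 counts against at most 30. miR-497 and miR-15a did not overlap either, but by 1 count only, 9 against 8, and the other neighbours overlapped. The order in MNC was the same. There only miR-15a and miR-195 were neighbours without overlap. Each row has its own yield of ligation and binding, so this is an order of barcodes and not of molecules. For the 3 members above background in no sample, as for 64% of mouse rows, the order has no meaning beyond the background.

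The family's counts added up to 125, 125, 106 and 149 in KC and to 80, 180, 114 and 162 in MNC, with overlapping groups. What differed was how the sum was divided. miR-16 made up 49.9 ± 5.55% (SD, n = 4) of it in KC, with 44.3% as the lowest sample, and 33.7 ± 6.79% (SD, n = 4) in MNC, with 42.2% as the highest. miR-15b made up 16.2 ± 7.0% in KC and 26.2 ± 5.38% in MNC, and here KC 2 and KC 4 overlapped with MNC. With the mean negative control taken off each count, the miR-16 share rose to 75.7 ± 15.1% in KC and 48.6 ± 12.2% in MNC, and the groups then overlapped, with KC 4 at 59.3% and MNC 2 at 63.3%.

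**Figure D3:**
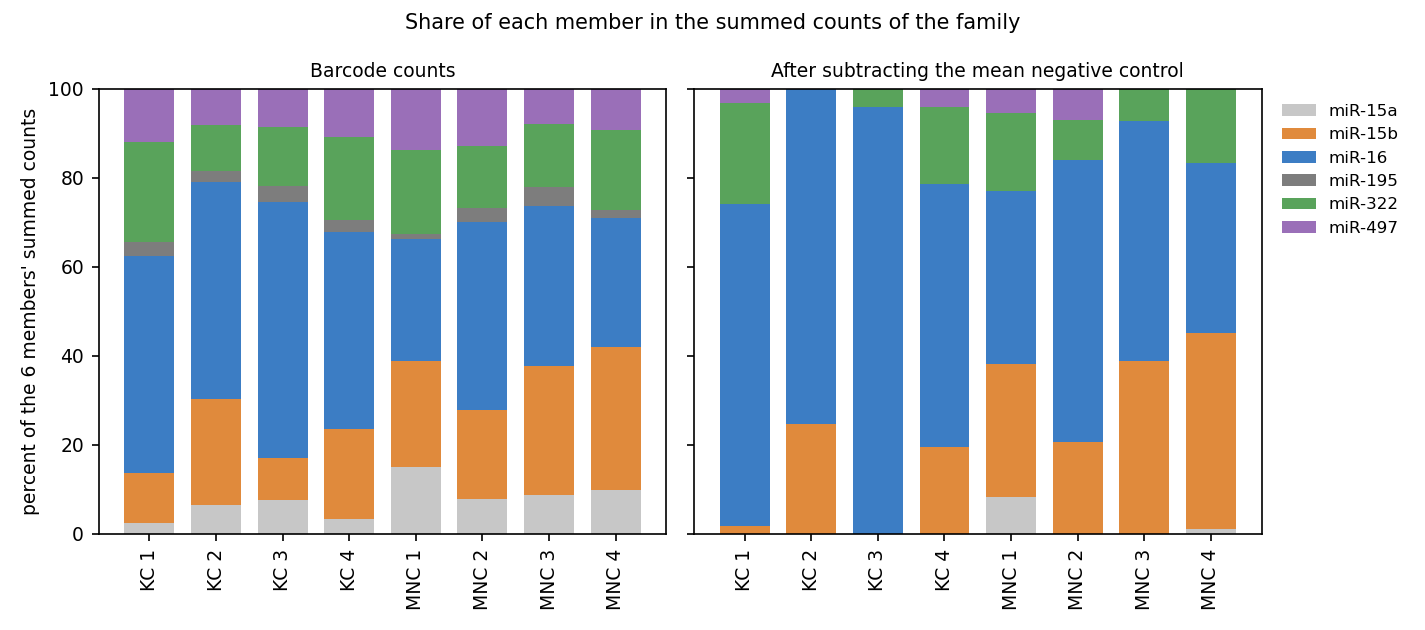
Share of the summed barcode counts of the family held by each of the 6 members, by sample, in percent, on the barcode counts (left) and after the mean negative control was subtracted (right). miR-16, in blue, held 44.3 to 57.5% in KC and 27.5 to 42.2% in MNC on the left, and 59.3 to 95.9% and 38.2 to 63.3% on the right.

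The ratio of miR-15b to miR-16 is free of the factor, since both counts are from 1 sample. miR-15b had 23.0, 49.2, 16.4 and 45.5% of the miR-16 count in KC and 86.4, 47.4, 80.5 and 111% in MNC. MNC 4 was the only sample in which miR-15b exceeded miR-16. MNC 2 lay between the KC samples, and the other 3 MNC samples lay above all KC samples. The small counts of miR-15b in KC, of which 3 were within background, limit this ratio.

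The question of the study was how KC and MNC differ. The members were chosen with this contrast known, so their differences are given as a description with their errors. On the signal, miR-16 was 93.0, 107, 101 and 102 in KC and 13.0, 55.5, 43.4 and 37.5 in MNC, with no overlap. Such non-overlap with KC higher held for 36.9% of mouse rows. The difference was 1.58 on the log2(signal + 1) scale, with a standard error of 0.45 and a 95% interval of 0.65 to 2.5. miR-16 was called by limma and the other 5 members were not, beside 24.7% of all mouse rows called higher and 0 lower, and nothing is read from this share. Both depend on the scale. With the ligation controls as the scale, neither miR-16 (-0.66) nor miR-195 (-0.74) was called, while miR-15a (-2.13), miR-15b (-1.92), miR-322 (-1.22) and miR-497 (-1.28) were called lower in KC. On that scale 258 mouse rows were called lower and 3 higher, and the median of all mouse rows was -1.08. These controls are spiked into the ligation and had geometric mean counts of 1217 to 2821 in KC and 533 to 1136 in MNC. On the barcode counts the miR-16 difference was 0.54, with an interval of -0.23 to 1.31, and the call was lost. It was lost with equal totals too, where the difference was 0.37. It was lost as well without KC 1, KC 2 or KC 4, where the difference was 1.62, 1.55 and 1.57. Of 16 alternatives, which include leaving out each sample, it held in 10. In these, 118 to 555 of the 566 mouse rows were called, or 40 of 54 after the filter on low values. Where it was lost, 1 to 41 rows were called, or 261 with the ligation controls as the scale. Without MNC 1, the sample with the fewest counts, the call held at a difference of 1.15, and miR-16 lay 0.49 above the median of all mouse rows and miR-15b at -0.79.

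The other members overlapped between the groups on the signal or lay under background. miR-15b had a mean signal of 34.3 ± 18.02 (SD, n = 4) in KC and 28.5 ± 13.1 (SD, n = 4) in MNC, less apart than the spread. miR-322 had 33.0 ± 11.6 and 16.8 ± 5.94, with KC 2 and KC 3 at 22.9 and 23.1 beside 23.2 in MNC 4. miR-497 had 20.0 ± 4.61 and 11.2 ± 4.36, and miR-195 had 6.05 ± 0.56 and 3.27 ± 1.93. Their higher means in KC come with a median mouse row that was higher by 0.94, and on the barcode counts the differences were -0.77 for miR-15b, -0.07 for miR-322, -0.16 for miR-497 and 0.14 for miR-195.

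Relative to the median of all mouse rows on the signal, miR-16 lay 0.64 higher in KC. The median mouse row was itself within background, with 7 to 14 counts per sample beside a mean negative control of 9.25 to 16.5. The miR-16 position depends less on the factor of a sample than the difference does. Still, it moved to 0.54 on the barcode counts, 0.51 with equal totals and 0.41 with the ligation controls as the scale. It was 0.28 both after the filter on low values and relative to the median of the rows above background, and 1.21 with negative controls subtracted. In rank, 3.89% of mouse rows had a larger difference. miR-15b lay at -0.70 relative to that median, with a difference of 0.24 and a standard error of 0.46. miR-15a lay at -1.06, rank 555 of 566. Its values are those of the background range, and the position was -0.18 with negative controls subtracted and 0 with values raised to the highest negative control. miR-322 was at 0.00, miR-195 at -0.09 and miR-497 at -0.11. The member median was -0.10, and the quartiles of all mouse rows were -0.35 and 0.23. The differences of miR-16 and miR-15b were 1.33 apart. miR-15b cleared background in MNC and mostly not in KC, so its place below the median is no finding apart from that. The 95% interval of the signal difference, moved by the same median, ran from -0.29 to 1.56 for miR-16 and -1.65 to 0.26 for miR-15b. For miR-15a, whose values are of the background range, it ran from -2.01 to -0.10. This interval still holds the spread of the sample factors, so it is not an interval of the position. With each sample's median subtracted, the pooled SD within groups was 0.30 for miR-16 and 0.50 for miR-15b. Whether a position differs from 0 was not tested.

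**Figure D4:**
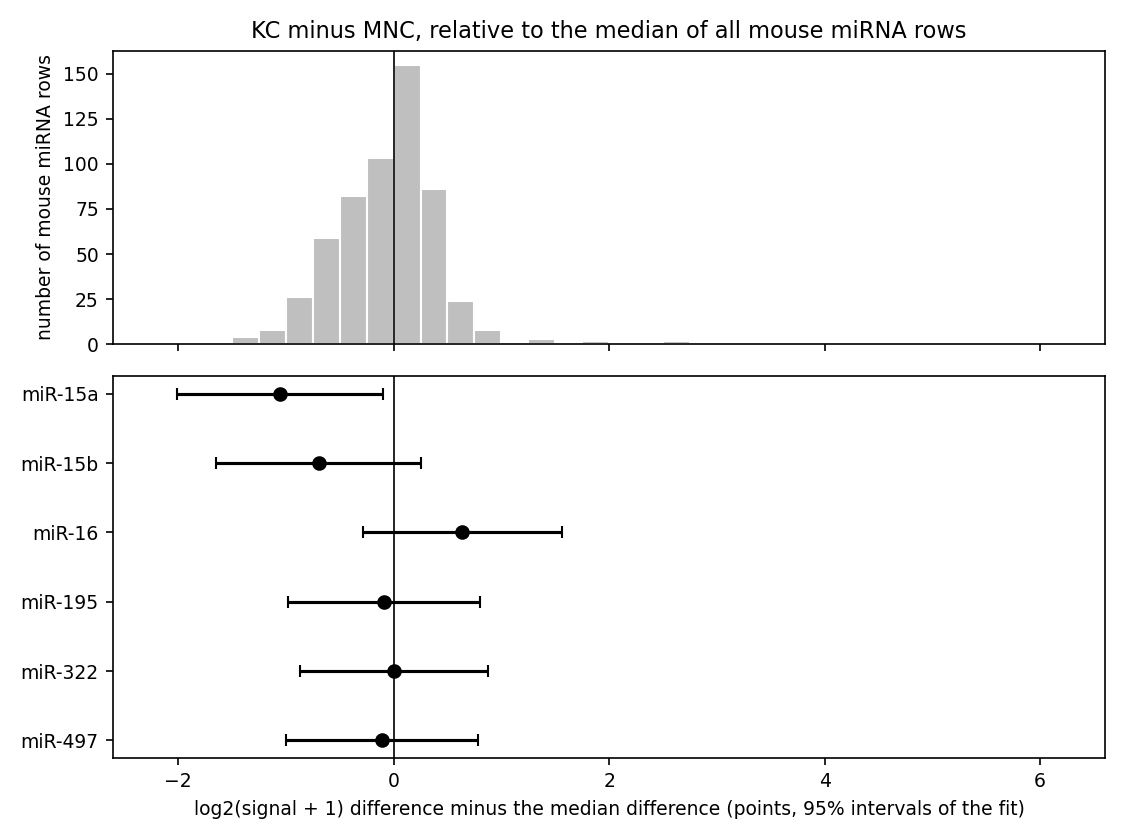
Difference between KC and MNC in log2(signal + 1), relative to the median of all 566 mouse rows. The 6 members are points under a histogram of all mouse rows. Bars are the 95% interval of the signal difference moved by that median, not an interval of the position. miR-16 lay at 0.64, miR-15b at -0.70 and miR-15a at -1.06.

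Over 17 alternatives, which include leaving out each sample, the miR-16 position ran from 0.28 to 1.21 and that of miR-15b from -1.47 to -0.28. Several of these could hardly turn the sign, since a rescaling moves all rows much alike and the replicate block leaves the estimate as it is. miR-15a ran from -1.42 to 0. miR-195, miR-322 and miR-497 ran from -0.47 to 0.34 over the 3 members. Their lowest positions, -0.45, -0.36 and -0.47, are relative to the median of the rows above background and not to that of all mouse rows, and the highest is miR-195 with the ligation controls as the scale.

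Rows that mark other cells were read beside the members. By limma, 3 of the 4 hepatocyte rows were called higher in KC, beside 24.7% of all mouse rows called higher and 0 lower. None of the red-cell, lymphocyte, endothelial and myeloid or pan-leukocyte rows was called. miR-486 and miR-451, which are abundant in red cells, had 78 to 114 and 6 to 9 counts in KC and 63 to 617 and 18 to 39 in MNC. The miR-451 counts did not overlap, all MNC samples being higher, which held for 1.06% of mouse rows in that direction. On the signal they did overlap, with 9.31 to 14.9 in KC and 13.1 to 27.5 in MNC. miR-451 was above background in 2 of 4 MNC samples and 0 of 4 KC samples. miR-144, the third red-cell row, had 1 to 5 counts. Their summed signal was 149 to 216 in KC and 61.9 to 586 in MNC. Within MNC these rows did not run together, as MNC 1, with the lowest miR-16 count, had the fewest counts of miR-486 (63) and the most of miR-451 (39). miR-122, the leading miRNA of hepatocytes, had 161 to 685 counts in KC and 2 to 7 in MNC. The summed signal of the 4 hepatocyte rows was 335 to 1195 in KC and 13.0 to 57.7 in MNC, and miR-122 made up most of it in KC. miR-192 had 20 to 29 counts in KC and 5 to 29 in MNC, miR-194 had 15 to 44 and 13 to 38, and miR-148a had 2 to 7 in both. miR-150, a lymphocyte miRNA, had 32 to 114 counts in KC and 15 to 463 in MNC. Of the myeloid and pan-leukocyte rows, miR-142-5p was above background in all 8 samples. miR-142-3p was so in KC 1 and KC 4 alone, with 12 to 32 counts, and miR-223 in none, with 2 to 11 counts. Both endothelial rows stayed under background, with 1 to 8 counts. The part of other cells in the miR-16 result was not tested.

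Rows with related seeds lay at or near background. miR-103, miR-107 and miR-503 carry seeds that overlap with the family's by a shift or a single base, and their mature sequences are shown for comparison, with bases 2 to 8 in capitals.

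miR-103: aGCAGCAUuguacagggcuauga
miR-107: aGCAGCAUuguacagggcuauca
miR-503: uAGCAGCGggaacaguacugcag

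Their counts were 1 to 31, and only miR-103 in KC 1, with 27 counts against a limit of 20, was above background. None of the 3 was called by limma, beside 24.7% of all mouse rows, and their median difference relative to all mouse rows was -0.37.

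The rows whose profile over the 8 samples was most like that of miR-16 were sought among 54 mouse rows above background in at least 4 samples. The profile was log2(signal + 1) minus the sample's median, centred on the row's mean, and likeness was the root mean square distance over the 8 samples. The nearest were miR-539 at 0.206, miR-714 at 0.262, miR-130b at 0.265, miR-30b at 0.285 and miR-873 at 0.287. miR-15b was the only other member among the rows searched. As these rows were chosen for their likeness over the same samples, their differences between KC and MNC are not set against that of miR-16.

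**Figure D5:**
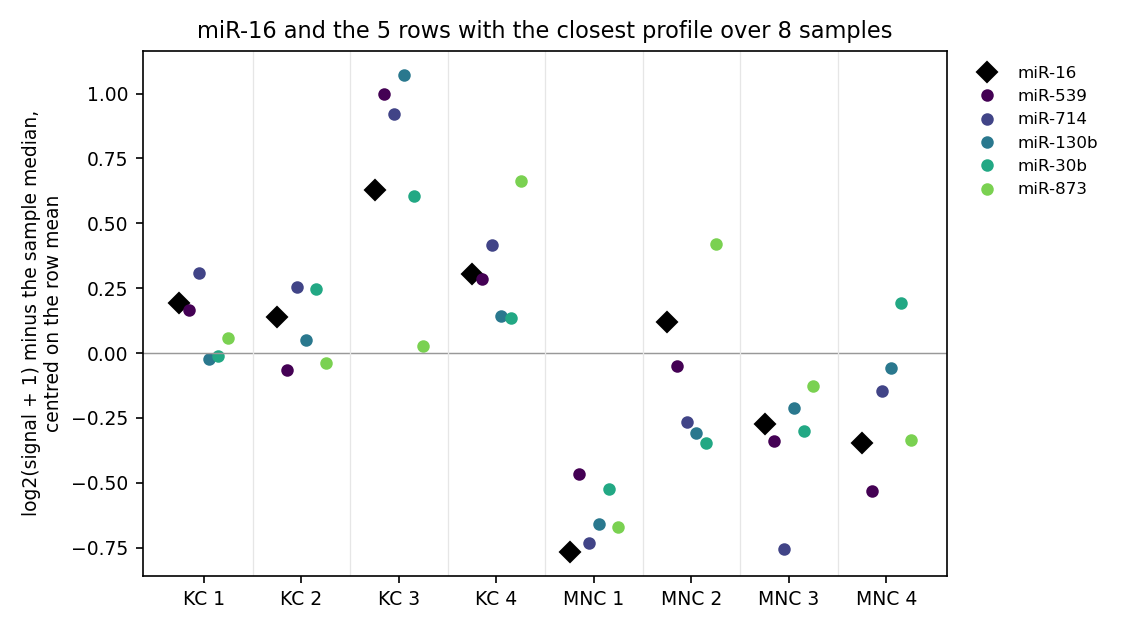
Profile of miR-16 (black diamonds) and of the 5 rows nearest to it over the 8 samples, as log2(signal + 1) minus the sample median and centred on the row mean. The miR-16 points lay above 0 in all 4 KC samples and below 0 in MNC 1, MNC 3 and MNC 4.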

How the data were processed

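RNA from KC and MNC (4 samples each, 100 ng per reaction) was measured on an nCounter Mouse miRNA V 1.5 panel and processed by the authors with nSolver Analysis Software 4.0. The deposited values are a signal, the barcode count times 1 factor per sample that brings the geometric mean of Actb, B2m, Gapdh and Rpl19 to one level, with values under 1 listed as 1. The scaling was read from the values, because the study names no reference rows for this panel. Its remark that the references were miRNAs does not match a scaling to these messenger RNAs, and which was intended is not known. Dividing by the factor gave whole counts within 0.02 for 100% of values above 1. Negative controls carry no factor.

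For KC minus MNC, limma 3.58.1 (R 4.3.3, trend, group only) was run on log2(signal + 1) over 566 mouse rows, with Benjamini-Hochberg adjustment and a threshold of 0.05. Tested on simulated data (566 rows, 200 changed 4-fold), the fit recovered 96.5%, with 4 false calls. The simulated counts were scaled by the sample totals and lacked the gap in factor between KC and MNC of the deposited signal. The false calls there therefore do not bear on the number of calls made on that signal. A floor hides the lowest counts, so no count model was used. The members and lists, red-cell and hepatocyte rows included, were chosen with earlier results of these data known. Rows named are the members, the listed rows, and the 5 nearest to miR-16.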

Additional observations from a re-analysis of the deposited data

Results flagged for a closer look

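In 24 sets of 4 samples, made up of the counts and signals of the 6 members in each group, 2 held a sample far from the other 3, and chance gives about 5% of sets. The miR-16 count was 66 in KC 4 and 61 in each of the other KC samples, so that the gap was the whole range (a gap over range of 1.0). The miR-195 count was 3 in KC 2 and 4 in the other KC samples, again with a gap over range of 1.0. Both gaps lie within the counting error of a single sample.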

How the results depend on the processing

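The count of mouse rows called by limma, 140, was 1 on barcode counts, 9 with equal totals, 261 with the ligation controls as the scale (3 higher and 258 lower in KC), 332 with negative controls subtracted, 555 with values raised to the highest negative control, 252 with a pseudocount of 10, and 40 of 54 after the filter on low values. Leaving out 1 sample gave 26 to 176 calls, with 33, 26 and 41 without KC 1, KC 2 and KC 4, and the miR-16 call was lost without each of these 3. The median member position, -0.10, was -0.46 relative to the rows above background and -0.17 to 0.01 with 1 sample left out. After the filter only 2 members remained, so it has no value there. Members above background in all MNC samples fell from 2 to 1, without miR-15b, both under a limit of mean plus 2 SD of the negative controls and under the highest herpesvirus row. The miR-16 share was 75.7% in KC and 48.6% in MNC with negative controls subtracted, and 47.3 to 51.7% and 30.8 to 35.7% with 1 sample left out. The cause of these shifts was not tested.

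Sample numbers are shared between the groups, but same-numbered samples deviated together by correlations of 0.021, 0.080, 0.017 and 0.104 only, so they were not taken as pairs. A fit with the replicate number as a block gave 198 calls and the same member median, -0.10. The counts of 4 of the 6 members stayed at or near the negative controls, and whether more depth would separate them was not tested.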
